A study of Homo sapiens with 9 samples.

Results

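The epidermal growth factor receptor (EGFR) family was followed through 10 genes in Cal-27 cells, an established human line of tongue squamous carcinoma. The genes were chosen by name for their roles, with earlier results of these data known. They were the receptors EGFR, ERBB2 and ERBB3, the ligands AREG, EREG, HBEGF, TGFA and BTC, and the feedback genes ERRFI1 and LRIG1. All 10 were among the 16366 genes measured, and all 10 were among the 12470 that had enough counts to be tested. Poly(A) RNA was sequenced from 3 groups of 3 libraries. In the CAF exosome group the cells had been kept for 48 h with CAF exosomes (CAF is the usual short form of cancer-associated fibroblast), and in the hOMF exosome group with exosomes of a source that the labels write as hOMF or hMOF and do not spell out. The control group is labelled as a control, with no statement of what, if anything, it received in place of exosomes. All 9 libraries came from cells labelled wild type, grown in the same high-glucose medium, which held 10% serum. The exosome dose is not stated, and neither is whether the libraries of a group came from separate cultures, so the p-values measure the spread between these libraries, which may be technical.

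EGFR, ERBB2 and ERBB3 are cell surface receptors that pair with each other when a ligand binds, phosphorylate their own tails and switch on the RAS-ERK and PI3K pathways. The ligands are made as membrane-anchored precursors that proteases cut free, and several ligand genes, as well as ERRFI1, are themselves switched on by ERK signalling. Squamous carcinomas of the mouth often carry high EGFR, and the receptor is a drug target in that disease.

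Libraries held 11185672 to 12779101 expected counts, the reads that the authors' software assigned to genes. Markers of squamous epithelium, the labelled cell type, were all measured (8 of 8). Summed levels in TPM (transcripts scaled for length and library depth) were 5221 to 5298 in the CAF exosome libraries. They were 4423 to 5005 TPM in the hOMF exosome libraries and 3231 to 4409 TPM in the controls. By edgeR 4 of the 8 rose with CAF exosomes and 2 with hOMF exosomes, and 0 fell, beside 9.51% and 11.8% of all genes tested that rose. KRT5 (log2 fold changes 0.72 with CAF exosomes and 0.51 with hOMF exosomes) and KRT14 (1.14 and 0.57) rose in both. KRT6A and KRT17 rose with CAF exosomes only. TP63, CDH1, EPCAM and DSG3 passed in neither comparison. Of 8 fibroblast markers 7 were measured, with sums of 15.3 to 15.8 TPM, 14.8 to 16.7 TPM and 10.9 to 12.5 TPM in the CAF exosome, hOMF exosome and control libraries, and COL3A1, DCN and THY1 had at most 2 counts in any library. Others of that list were expressed: COL1A1 averaged 12.5, 12.5 and 10.0 TPM in the CAF exosome, hOMF exosome and control groups, and LUM, at 15 to 38 counts a library, rose in both comparisons (log2 fold changes 1.06, adjusted p = 0.00805, with CAF exosomes and 0.94, adjusted p = 0.0130, with hOMF exosomes, by edgeR). Of 4 endothelial markers 3 were measured, with sums of 6.36 to 7.17 TPM, 6.64 to 7.55 TPM and 7.86 to 11.2 TPM in the same order of groups. CDH5 fell in both comparisons (log2 fold changes -0.69, adjusted p = 0.00274, with CAF exosomes and -0.66, adjusted p = 0.00256, with hOMF exosomes, by edgeR). VWF, with positive log2 fold changes (0.73 and 0.70), and PECAM1, with negative ones (-1.07 and -0.62), did not pass in either. Control replicate 3 stood apart. PTPRC, the common leukocyte surface antigen, had 94 counts in that library and 0 or 1 in each of the other 8, and LCP1, an actin-bundling protein of leukocytes, had 746 counts there and 176 to 249 elsewhere. CD14, the remaining leukocyte marker that was measured, averaged 9.22, 9.57 and 6.92 TPM in the CAF exosome, hOMF exosome and control groups. It did not pass with CAF exosomes (adjusted p = 0.230, by edgeR) or with hOMF exosomes (adjusted p = 0.162). The 3 of 5 leukocyte markers that were measured summed to 15.8 to 16.8 TPM in CAF exosome libraries, 17.4 to 18.6 TPM in hOMF exosome libraries and 13.3 to 35.5 TPM in controls. The part of these marker differences in the results was not tested. For those of the 10 genes that passed the test, fold changes are also given without control replicate 3. In libraries of bulk RNA, fewer cells that express a gene and less of its RNA per cell cannot be told apart.

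The receptor gene EGFR stood far above the rest of its family in level per transcript length. In TPM it averaged 407 ± 73.1 with CAF exosomes, 401 ± 38.5 with hOMF exosomes and 296 ± 31.4 in controls (SD, n = 3 each). It exceeded about 97% to 98% of all genes measured, with percentiles of 98.1 in the CAF exosome group, 98.0 in the hOMF exosome group and 97.3 in controls. Next in order came ERRFI1 (95.9, 87.7 and 131 TPM in the CAF exosome, hOMF exosome and control groups), HBEGF (56.3, 50.2 and 77.2 TPM) and ERBB2 (36.7, 35.8 and 28.3 TPM). These 4 genes kept the same order in every group, and the libraries of neighbouring genes in the order did not overlap within a group. Below them AREG, TGFA and ERBB3 lay close together, between 15.2 and 25.9 TPM in any library, and their order differed between groups. AREG and TGFA overlapped in the CAF exosome and control groups, as did TGFA and ERBB3. ERBB3 and AREG overlapped in the hOMF exosome and control groups. EREG and LRIG1 followed at 4.93 to 8.62 TPM and overlapped in both exosome groups but not in controls. BTC was last, at 0.77 to 2.01 TPM.

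**Figure D1:**
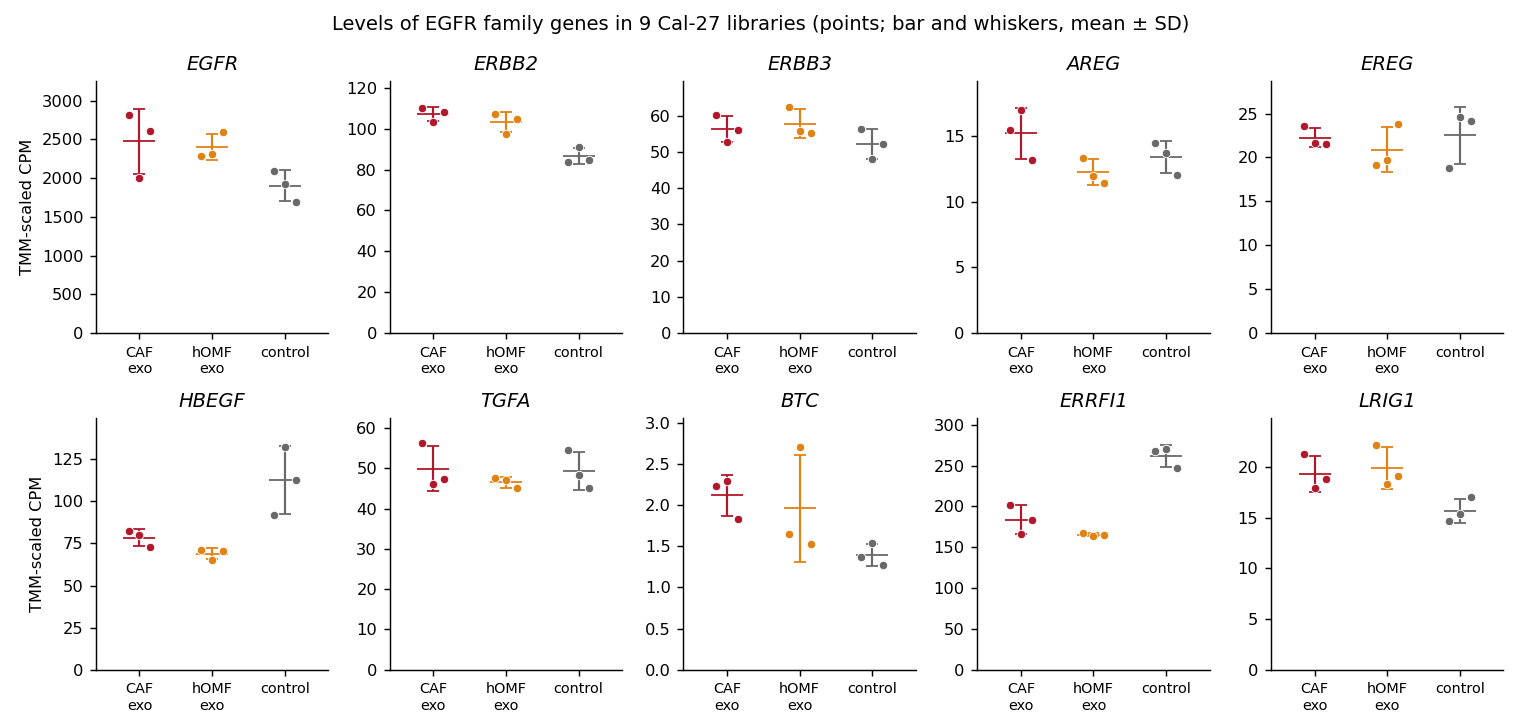
TMM-scaled CPM (y axis, each panel with its own scale from 0) of the 10 genes in CAF exosome, hOMF exosome and control libraries; each point is a library, and the bar and whiskers give the mean and SD of 3. HBEGF and ERRFI1 lie lower in every exosome library than in every control library, and ERBB2 and LRIG1 lie higher, while EREG and TGFA overlap between all groups.

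Set against the controls, the exosome groups had more transcripts of EGFR and ERBB2, though not of ERBB3 by the test used, and fewer of HBEGF and ERRFI1. With CAF exosomes 4 of the 10 genes passed the test (edgeR quasi-likelihood, Benjamini-Hochberg adjusted p under 0.05), against 18.2% of all genes tested. EGFR and ERBB2 rose (9.51% of all genes rose) and HBEGF and ERRFI1 fell (8.64% of all genes fell). With hOMF exosomes 5 of the 10 passed, against 23.2% of all genes tested. EGFR, ERBB2 and LRIG1 rose (11.8% of all genes) and HBEGF and ERRFI1 fell (11.4% of all genes). The median log2 fold change of the 10 genes was 0.15 with CAF exosomes and 0.03 with hOMF exosomes, beside -0.0055 and 0.0029 over all genes tested. In TMM-scaled CPM (counts scaled to library depth), the exosome and control libraries did not overlap for 5 of the 10 genes in each comparison, against 36.2% of all genes for CAF exosomes and 39.5% for hOMF exosomes. Both comparisons use the same 3 control libraries, so a control library that is high or low for a gene moves both in the same direction.

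**Figure D2:**
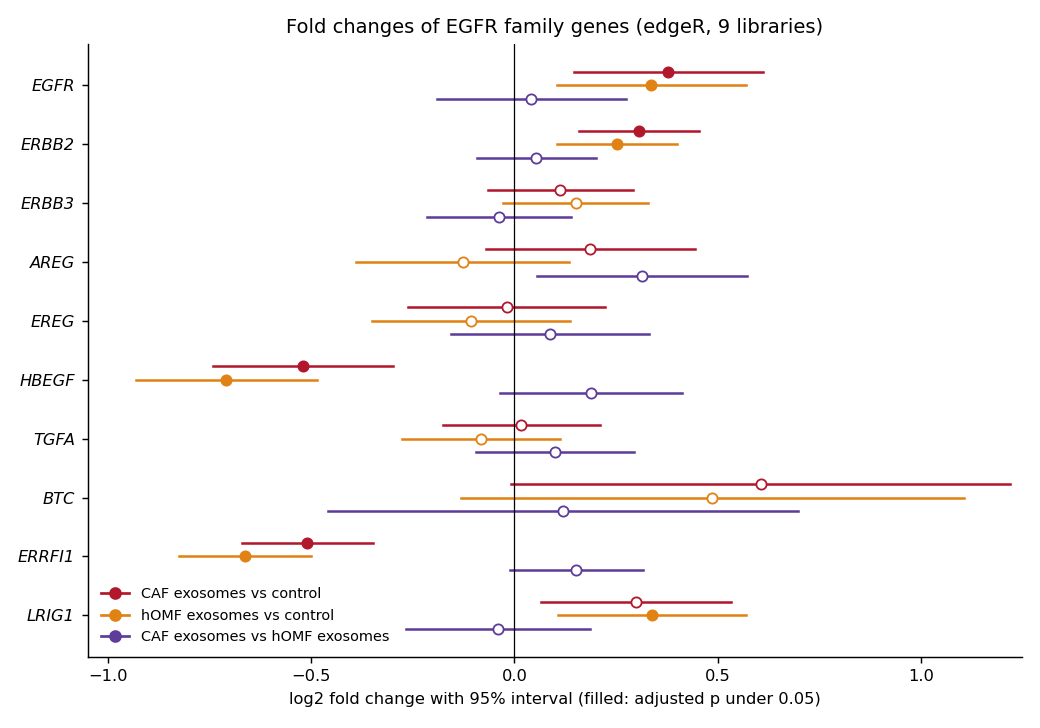
Log2 fold changes (x axis) with 95% intervals of the 10 genes in CAF exosomes against control, hOMF exosomes against control, and CAF against hOMF exosomes, filled where the edgeR adjusted p was under 0.05. HBEGF and ERRFI1 are on the left in both comparisons with control, EGFR and ERBB2 on the right, and no difference between the kinds of exosomes is filled.

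EGFR, the receptor of all 5 ligands followed here, lies at chr7:55019021-55211628 on the plus strand (GRCh38, GENCODE 29). It had 2814, 1998 and 2607 CPM in the CAF exosome libraries, 2292, 2314 and 2601 CPM in the hOMF exosome libraries and 2095, 1919 and 1691 CPM in the controls. The hOMF exosome libraries were all above the controls, but CAF exosome replicate 2 was below control replicate 1, so those groups overlapped. EGFR rose 1.30-fold with CAF exosomes (log2 fold change 0.38, SE 0.11, adjusted p = 0.0259) and 1.26-fold with hOMF exosomes (0.34, SE 0.11, adjusted p = 0.0361). Neither call was steady. Without control replicate 3, the library in which PTPRC and LCP1 were raised, the log2 fold changes were 0.30 with CAF exosomes (adjusted p = 0.0995) and 0.26 with hOMF exosomes (adjusted p = 0.133). The CAF exosome call was also lost without CAF exosome replicate 1 (log2 fold change 0.28, adjusted p = 0.109), CAF exosome replicate 3 (0.35, adjusted p = 0.0937) or control replicate 2 (0.39, adjusted p = 0.0711). The hOMF exosome call was also lost without CAF exosome replicate 3, any of the hOMF exosome libraries, or control replicate 2, with log2 fold changes of 0.28 to 0.37 and adjusted p-values of 0.0516 to 0.103.

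ERBB2, the family member with no known ligand of its own and the preferred partner of the others, lies at chr17:39687914-39730426 on the plus strand. The CAF exosome libraries held 110.0, 103 and 108 CPM of ERBB2, the hOMF exosome libraries 107, 97.6 and 105 CPM and the controls 83.8, 91.2 and 84.7 CPM. Every exosome library was above every control library. ERBB2 rose 1.24-fold with CAF exosomes (log2 fold change 0.31, SE 0.07, adjusted p = 0.00720) and 1.19-fold with hOMF exosomes (0.25, SE 0.07, adjusted p = 0.0161). Without control replicate 3 the values were 0.29 with CAF exosomes (adjusted p = 0.0285) and 0.24 with hOMF exosomes (adjusted p = 0.0540). The hOMF exosome call was lost as well without hOMF exosome replicate 1 (adjusted p = 0.0582), and the CAF exosome call passed in all 19 alternatives run. Some exon bases of ERBB2 are shared with MIEN1 (571 bases, 5.53%) and PGAP3 (194 bases, 1.88%) on the opposite strand, and how the counting treated strand is unknown here, so reads in those bases cannot be told apart.

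ERBB3, a receptor with weak kinase activity of its own that signals in pairs, lies at chr12:56076799-56103505 on the plus strand. It had 52.9 to 60.2 CPM with CAF exosomes, 55.2 to 62.5 CPM with hOMF exosomes and 48.0 to 56.3 CPM in controls. The groups overlapped, and ERBB3 did not pass the test with CAF exosomes (log2 fold change 0.11, SE 0.08, adjusted p = 0.368) or with hOMF exosomes (0.15, SE 0.08, adjusted p = 0.206). EGFR made up most of the summed receptor transcripts in every library. Its share of the summed TPM of EGFR, ERBB2, ERBB3 and the barely detected ERBB4 was 86.1% to 89.0% with CAF exosomes, 86.9% to 88.6% with hOMF exosomes and 85.0% to 87.8% in controls, with overlap between the groups.

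HBEGF encodes heparin-binding EGF-like growth factor, a ligand of EGFR and ERBB4, and lies at chr5:140332843-140346631 on the minus strand. ERRFI1 (also called MIG6) encodes a cytoplasmic protein that binds the active EGFR kinase and inhibits it, and lies at chr1:8004404-8026308 on the minus strand. These genes had the largest falls of the 10, and their promoter windows are shown beside those of EGFR, which rose, and of AREG, a ligand gene that did not pass the test. Each window runs from 250 bases before to 50 bases after the gene start in RefSeq on GRCh38.p14, 5′ to 3′ on the gene's strand: chr5:140346554-140346853 (minus) for HBEGF, chr1:8026260-8026559 (minus) for ERRFI1, chr7:55018767-55019066 (plus) for EGFR and chr4:74444886-74445185 (plus) for AREG. Capitals mark letters that match any of 7 motifs searched on both strands.
HBEGF: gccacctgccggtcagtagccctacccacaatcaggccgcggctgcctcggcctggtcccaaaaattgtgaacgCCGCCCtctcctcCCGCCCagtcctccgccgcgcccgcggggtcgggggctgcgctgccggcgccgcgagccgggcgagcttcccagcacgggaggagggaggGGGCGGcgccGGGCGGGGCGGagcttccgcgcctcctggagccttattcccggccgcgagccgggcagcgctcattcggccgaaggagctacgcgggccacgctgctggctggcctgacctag
ERRFI1: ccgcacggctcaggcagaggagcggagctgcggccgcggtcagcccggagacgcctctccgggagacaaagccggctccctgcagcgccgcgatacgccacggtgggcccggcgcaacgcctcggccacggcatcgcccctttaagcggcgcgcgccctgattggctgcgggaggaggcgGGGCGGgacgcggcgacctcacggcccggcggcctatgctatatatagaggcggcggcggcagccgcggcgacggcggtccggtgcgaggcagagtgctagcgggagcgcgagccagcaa
EGFR: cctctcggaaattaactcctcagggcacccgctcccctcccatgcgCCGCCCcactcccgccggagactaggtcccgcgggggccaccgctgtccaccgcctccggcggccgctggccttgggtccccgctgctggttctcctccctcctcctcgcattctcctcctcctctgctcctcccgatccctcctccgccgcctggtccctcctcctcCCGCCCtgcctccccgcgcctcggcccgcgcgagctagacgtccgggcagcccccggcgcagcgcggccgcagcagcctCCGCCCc
AREG: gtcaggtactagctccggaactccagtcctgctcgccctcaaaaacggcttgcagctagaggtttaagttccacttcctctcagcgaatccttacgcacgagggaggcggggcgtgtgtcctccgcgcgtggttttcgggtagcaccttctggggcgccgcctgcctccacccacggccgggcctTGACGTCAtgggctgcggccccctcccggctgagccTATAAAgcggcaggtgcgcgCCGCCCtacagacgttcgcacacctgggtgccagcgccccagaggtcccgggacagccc

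The motifs were the GC box (GGGCGG, in 45.0% of 35116 RefSeq promoter windows of the same length), AP-1 (TGANTCA, 7.71%), the cyclic AMP response element or CRE (TGACGTCA, 1.85%), EGR (GCGGGGGCG, 5.07%), ETS (CCGGAAGT, 4.14%), the E-box (CACGTG, 7.26%) and the TATA box (TATAAA, 11.5%). HBEGF held 5 GC boxes, of which the last 2 share a base, EGFR held 3 and ERRFI1 held 1. The AREG window held 1 CRE, 1 TATA box and 1 GC box. The windows of HBEGF, ERRFI1 and EGFR had no match to the other 6 motifs, and all 3 were rich in G and C (75.0%, 74.7% and 75.3% of bases, beside a median of 58.7% over all windows). Windows were found for 9 of the 10 genes, ERBB3 being the exception. A match describes letters only.

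HBEGF was the most abundant of the 5 ligands in every library. Its libraries had 82.5, 80.3 and 72.7 CPM with CAF exosomes, 70.9, 65.1 and 70.5 CPM with hOMF exosomes and 92.2, 133 and 113 CPM in controls. All exosome libraries lay below all controls, and the controls were spread more widely than either exosome group. HBEGF fell to 0.697 times the control level with CAF exosomes (log2 fold change -0.52, SE 0.10, adjusted p = 0.00347) and to 0.612 times with hOMF exosomes (-0.71, SE 0.10, adjusted p = 0.000237). Without control replicate 3 the log2 fold changes were as large, at -0.52 (adjusted p = 0.0103) and -0.71 (adjusted p = 0.000858). Of all genes tested, 3.2% had a lower fold change with CAF exosomes and 1.9% with hOMF exosomes. Both calls held in all 19 alternatives.

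AREG, EREG and TGFA gave no call in either comparison. AREG encodes amphiregulin, a low-affinity EGFR ligand (chr4:74445134-74455009, plus strand). It had 15.5, 17.0 and 13.2 CPM with CAF exosomes, 13.4, 12.0 and 11.5 CPM with hOMF exosomes and 14.5, 13.7 and 12.0 CPM in controls. All 3 groups overlapped, with log2 fold changes of 0.19 (SE 0.12, adjusted p = 0.297) for CAF exosomes and -0.13 (SE 0.12, adjusted p = 0.489) for hOMF exosomes against control. EREG encodes epiregulin, a ligand of EGFR and ERBB4 (chr4:74365143-74388751, plus strand), and had 21.5 to 23.5 CPM, 19.2 to 23.8 CPM and 18.8 to 24.6 CPM with CAF exosomes, with hOMF exosomes and in controls. TGFA encodes transforming growth factor alpha, a ligand of EGFR (chr2:70447280-70554193, minus strand), and had 46.1 to 56.3 CPM, 45.0 to 47.5 CPM and 45.2 to 54.5 CPM in the same groups. The 95% intervals of the log2 fold change against control were -0.26 to 0.22 (CAF exosomes) and -0.35 to 0.14 (hOMF exosomes) for EREG. For TGFA they were -0.18 to 0.21 (CAF exosomes) and -0.28 to 0.11 (hOMF exosomes).

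BTC, which encodes betacellulin, a ligand of EGFR and ERBB4 (chr4:74744759-74794686, minus strand), had the fewest counts of the 10 genes. Its expected counts were 25, 27 and 22 with CAF exosomes, 19, 31 and 20 with hOMF exosomes and 15, 17 and 16 in controls. Every exosome library was above every control in counts, although in CPM hOMF exosome replicate 3 (1.53) was just below control replicate 2 (1.54). Neither comparison passed the test: the log2 fold change was 0.61 with CAF exosomes (SE 0.29, 95% interval -0.0075 to 1.22, adjusted p = 0.157) and 0.49 with hOMF exosomes (SE 0.29, 95% interval -0.13 to 1.11, adjusted p = 0.241). Without hOMF exosome replicate 2, which had the 31 counts, the hOMF exosome value was 0.19.

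ERRFI1 was the most abundant family gene after EGFR. It had 202, 166 and 184 CPM with CAF exosomes, 168, 164 and 165 CPM with hOMF exosomes and 268, 271 and 247 CPM in controls. No exosome library reached the lowest control. ERRFI1 fell to 0.703 times the control level with CAF exosomes (log2 fold change -0.51, SE 0.08, adjusted p = 0.000427) and to 0.632 times with hOMF exosomes (-0.66, SE 0.08, adjusted p = 3.71e-05), the smallest adjusted p-values among the 10 genes. Without control replicate 3 the log2 fold changes were -0.55 (adjusted p = 0.000686) and -0.70 (adjusted p = 6.43e-05), and both calls held in all 19 alternatives. An opposite-strand gene shares 155 (3.70%) of its exon bases.

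LRIG1, a transmembrane protein that promotes the degradation of the receptors, lies at chr3:66378797-66501263 on the minus strand. Its libraries had 21.3, 17.9 and 18.8 CPM with CAF exosomes, 22.2, 18.3 and 19.1 CPM with hOMF exosomes and 14.6, 15.4 and 17.0 CPM in controls. Every exosome library was above every control library. LRIG1 rose 1.27-fold with hOMF exosomes (log2 fold change 0.34, SE 0.11, adjusted p = 0.0343), while with CAF exosomes the log2 fold change of 0.30 (SE 0.11) did not pass (adjusted p = 0.0689). The hOMF exosome value without control replicate 3 was 0.40 (adjusted p = 0.0355). That call was lost with DESeq2 and without CAF exosome replicate 3, hOMF exosome replicate 1, control replicate 1 or control replicate 2, where the log2 fold changes were 0.25 to 0.34 and the adjusted p reached 0.145. The exons of LRIG1 share 907 bases (12.9%) with SLC25A26 on the opposite strand, and reads there cannot be told apart with the strand setting unknown.

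**Figure D3:**
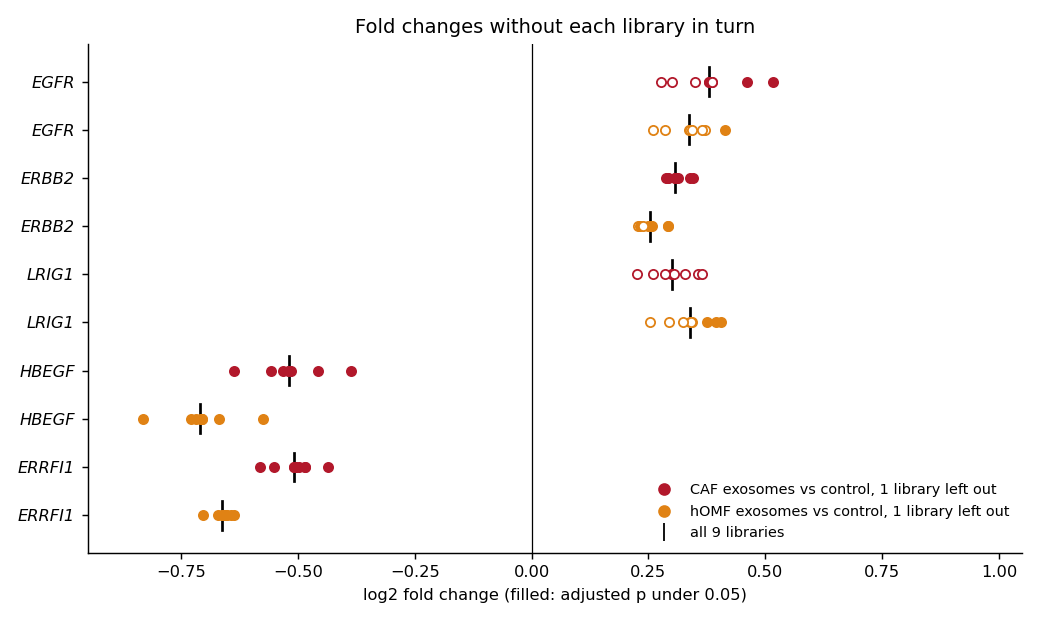
Log2 fold change against control (x axis) of the 5 genes that passed in either comparison, each point with another of the 9 libraries left out, filled where the edgeR adjusted p was under 0.05; the black line is the value with all 9. All points of HBEGF and ERRFI1 are filled and negative, those of EGFR and of LRIG1 with hOMF exosomes are filled in part, and those of LRIG1 with CAF exosomes are open.

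Ratios between the transcripts of 1 library do not depend on how libraries are scaled to each other. The TPM of EGFR divided by that of ERRFI1, its inhibitor, was 4.37, 3.86 and 4.45 with CAF exosomes, 4.31, 4.48 and 4.89 with hOMF exosomes and 2.44, 2.21 and 2.13 in controls. The lowest exosome library was above the highest control. Divided by the summed TPM of the 5 ligands, EGFR gave 4.00, 3.01 and 4.27 with CAF exosomes, 3.85, 4.15 and 4.42 with hOMF exosomes and 2.91, 2.15 and 2.17 in controls. CAF exosome replicate 2 was the nearest to the controls in this ratio, and the groups did not overlap. HBEGF took 51.5%, 51.8% and 52.3% of the summed ligand TPM with CAF exosomes, 52.0%, 50.5% and 53.1% with hOMF exosomes and 56.4%, 65.6% and 64.0% in controls. The share was lower in every exosome library, and it was at least 50.5% in all 9 libraries. The ratios are built from genes already tested above and were not tested again.

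**Figure D4:**
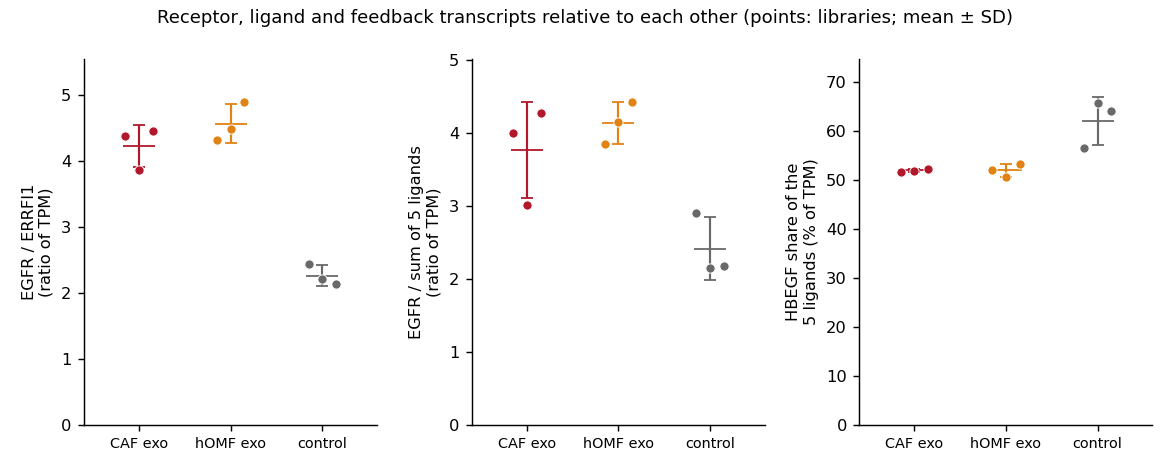
Ratio of EGFR to ERRFI1, ratio of EGFR to the sum of the 5 ligands, and share of HBEGF in that sum (y axes, from TPM) in CAF exosome, hOMF exosome and control libraries, with points for libraries and mean and SD of 3. Both ratios are higher and the HBEGF share is lower in every exosome library than in every control library, with EGFR over ERRFI1 at 3.86 to 4.89 in exosome libraries and 2.13 to 2.44 in controls.

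Between CAF and hOMF exosomes none of the 10 genes passed the edgeR test, against 0.016% of all genes tested. At an unadjusted p under 0.05 there was 1 of the 10, AREG, beside 947 of all 12470 genes tested, and DESeq2 and limma called 0 of the 10. AREG was higher with CAF exosomes by 0.31 on the log2 scale (SE 0.12, 95% interval 0.06 to 0.57, unadjusted p = 0.0200, adjusted p = 0.550). HBEGF was the 1 gene whose libraries did not overlap, against 13.7% of all genes, at 72.7 to 82.5 CPM with CAF exosomes and 65.1 to 70.9 CPM with hOMF exosomes (log2 difference 0.19, SE 0.11, 95% interval -0.04 to 0.41, adjusted p = 0.728). For ERRFI1 the difference was 0.15 (SE 0.08, 95% interval -0.01 to 0.32, adjusted p = 0.691) and for EGFR 0.04 (SE 0.11, 95% interval -0.19 to 0.27, adjusted p = 0.972). Over the 10 genes the log2 differences ran from -0.04 to 0.31, with 8 of 10 above 0 and a median of 0.09, beside -0.0043 over all genes. These p-values do not show that the kinds of exosomes act alike: the intervals reach from -0.46 to 0.70 on the log2 scale, both ends being those of BTC.

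Most of the remaining family genes were barely detected, with the exception of NRG1, a neuregulin that binds ERBB3 and ERBB4, and of NRG4. Of 7 other ligand and receptor genes 2 had enough counts to be tested, NRG1 and NRG4. The receptor ERBB4 had at most 4 counts in a library, and the ligands EGF, EPGN and NRG2 had at most 11, 5 and 7. NRG3 was not among the genes measured. NRG1 fell with hOMF exosomes (log2 fold change -0.43, SE 0.07, adjusted p = 0.000669) and did not pass with CAF exosomes (-0.21, SE 0.07, adjusted p = 0.0554). The hOMF exosome call was not made by limma on FPKM. NRG4, another neuregulin, gave -0.50 with CAF exosomes (SE 0.19, adjusted p = 0.0753) and -0.42 with hOMF exosomes (adjusted p = 0.110).

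Among 4 genes for the proteases that release the ligands and their partners, 1 rose in each comparison and 0 fell, which is near the share of all genes tested that passed (18.2% with CAF exosomes and 23.2% with hOMF exosomes). It was RHBDF1, an inactive rhomboid protein that partners ADAM17, with log2 fold changes of 0.47 with CAF exosomes (SE 0.08, adjusted p = 0.00121) and 0.41 with hOMF exosomes (SE 0.08, adjusted p = 0.00199). The proteases themselves did not pass in either comparison. With CAF exosomes ADAM10 gave 0.18 (adjusted p = 0.122) and ADAM17 gave 0.04 (adjusted p = 0.753). The hOMF exosome values were 0.11 (adjusted p = 0.298) for ADAM10 and 0.06 (adjusted p = 0.591) for ADAM17. The list's median log2 fold change was 0.11 with CAF exosomes and 0.09 with hOMF exosomes.

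Of 22 genes for receptor adaptors and the RAS-ERK and PI3K pathways, 1 rose and 5 fell with CAF exosomes, and 2 rose and 6 fell with hOMF exosomes, with medians of -0.12 and -0.09. Those that passed were 6 and 8 of 22, beside 18.2% and 23.2% of all genes tested. MAP2K1, the kinase that activates ERK, had log2 fold changes of -0.34 with CAF exosomes (adjusted p = 0.00246) and -0.22 with hOMF exosomes (adjusted p = 0.0210). For GRB2, the adaptor that links receptors to RAS activation, they were -0.32 (adjusted p = 0.00577) and -0.21 (adjusted p = 0.0379). SHC1, another adaptor of the receptors, rose in both (0.29, adjusted p = 0.00577 and 0.21, adjusted p = 0.0269). Of the others that passed, NRAS and PTPN11 fell in both comparisons, and with hOMF exosomes AKT1 fell and MAPK3 rose; these were chosen for naming after their values were seen. The falls depended on scaling and on single libraries. With library totals in place of TMM factors 3 genes fell with CAF exosomes and 2 with hOMF exosomes, and with limma on log2(FPKM + 1) 3 and 1 fell. The total of genes that passed with CAF exosomes was 3 without CAF exosome replicate 3 or without control replicate 1. With hOMF exosomes it was 1 without hOMF exosome replicate 1, 2 without hOMF exosome replicate 2 or control replicate 2, 3 without control replicate 3 and 4 without control replicate 1. Among the genes named, without control replicate 3 the hOMF exosome calls of MAP2K1 (log2 fold change -0.20, adjusted p = 0.0728), GRB2 (-0.20, adjusted p = 0.101), SHC1 (0.21, adjusted p = 0.0572), PTPN11 (-0.29, adjusted p = 0.0569) and MAPK3 (0.23, adjusted p = 0.0600) were lost, and so was the CAF exosome call of PTPN11 (-0.31, adjusted p = 0.0510).

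A list of 10 genes was drawn up as other negative regulators of the receptors. That role is not established for every gene in it, LRIG2, LRIG3 and USP8 among them. With CAF exosomes 3 rose and 1 fell, and with hOMF exosomes 3 rose and 0 fell, with medians of 0.01 and 0.07. The 4 and 3 of 10 that passed stand beside 18.2% and 23.2% of all genes tested. The genes that rose were the LRIG1 relatives LRIG3 and LRIG2 and the ubiquitin ligase CBLC. LRIG3 had log2 fold changes of 0.58 with CAF exosomes (SE 0.11, adjusted p = 0.00187) and 0.39 with hOMF exosomes (SE 0.11, adjusted p = 0.0161). LRIG2 had 0.41 (adjusted p = 0.00663) and 0.40 (adjusted p = 0.00632), and CBLC had 0.44 (adjusted p = 0.0120) and 0.48 (adjusted p = 0.00571). SH3KBP1, a scaffold protein of receptor uptake named after its values were seen, fell with CAF exosomes (-0.36, adjusted p = 0.0210) and did not pass with hOMF exosomes (-0.24, adjusted p = 0.0923). Without CAF exosome replicate 3, 2 of the 10 rose and 0 fell with CAF exosomes. Without control replicate 3 the hOMF exosome call of LRIG3 (0.32, adjusted p = 0.0763) and the CAF exosome call of SH3KBP1 (-0.23, adjusted p = 0.120) were lost.

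Of 13 genes that ERK signalling is known to switch on, 0 rose in either comparison, while 6 fell with CAF exosomes and 7 with hOMF exosomes, beside 8.64% and 11.4% of all genes tested that fell. The list's median log2 fold change was -0.28 with CAF exosomes and -0.28 with hOMF exosomes, beside -0.0055 and 0.0029 over all genes tested. This list, like the others, was chosen with earlier results of these data known. Without control replicate 3, 6 and 7 fell, but with CAF exosomes the call of CCND1 was lost (-0.26, adjusted p = 0.0510) and PLAUR passed (-0.36, adjusted p = 0.0328). DUSP4, a phosphatase of ERK, had log2 fold changes of -0.47 with CAF exosomes (SE 0.07, adjusted p = 0.000492) and -0.28 with hOMF exosomes (SE 0.07, adjusted p = 0.0108). FOSL1, a subunit of the AP-1 transcription factor, had -0.69 (SE 0.12, adjusted p = 0.00131) and -0.83 (SE 0.12, adjusted p = 0.000208). DUSP6, the cytoplasmic phosphatase of ERK, had -0.46 (SE 0.09, adjusted p = 0.00207) and -0.67 (SE 0.09, adjusted p = 8.15e-05). EGR1, PHLDA1 and CCND1 fell in both comparisons and PLAUR with hOMF exosomes. ETV4, ETV5, FOS, IER3, SPRY2 and SPRY4 passed in neither. SPRY2 had log2 fold changes of 0.08 with CAF exosomes and -0.10 with hOMF exosomes, and ETV4 had 0.05 and -0.09. Those of ETV5, FOS, IER3 and SPRY4 were negative in both comparisons. All of these genes were named after their values were seen. Leaving out any 1 library gave 5 to 8 falls with CAF exosomes and 6 to 8 with hOMF exosomes, and 0 rises. The number of falls in this list under other scaling is not reported here. Over all genes, library totals in place of TMM factors gave fewer falls: 832 beside 1078 with CAF exosomes and 989 beside 1421 with hOMF exosomes. In all 5 lists 0 genes passed between CAF and hOMF exosomes by the edgeR test.

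**Figure D5:**
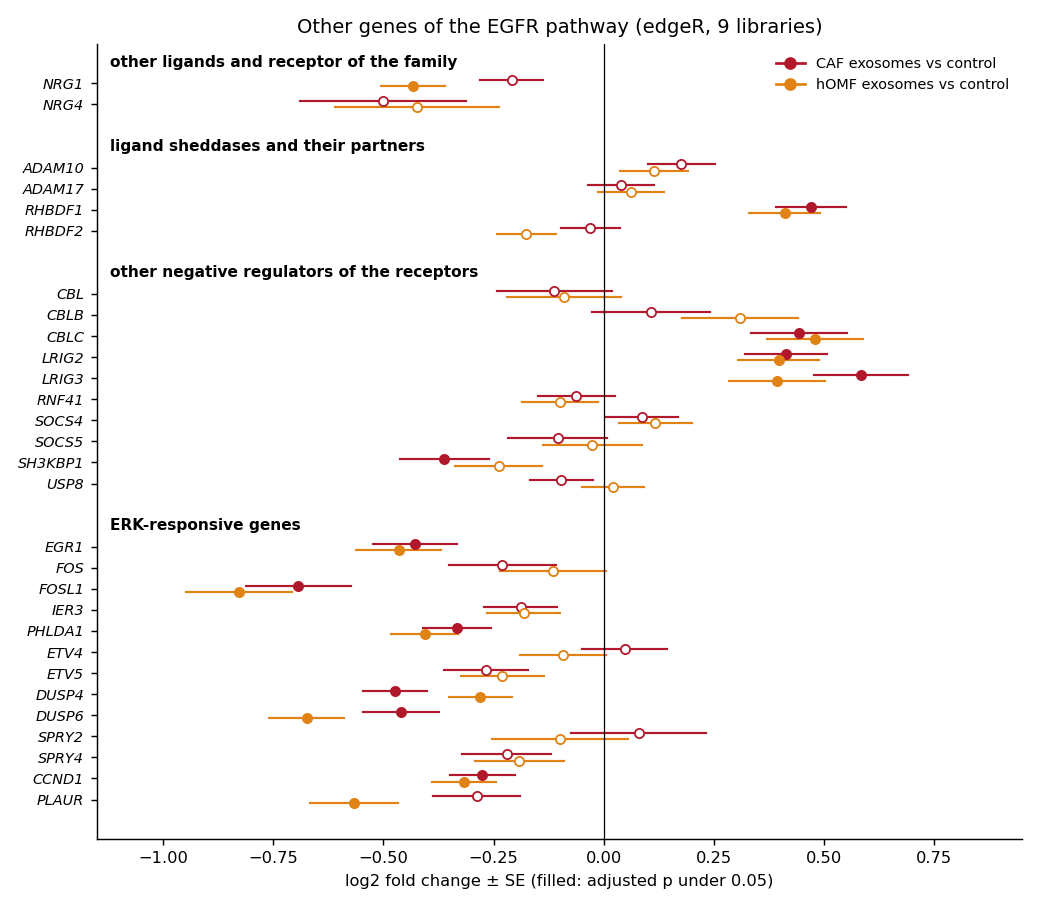
Log2 fold changes against control (x axis, with SE) of the other family ligands, the sheddases, the genes listed as other negative regulators and the ERK-responsive genes that were tested, for CAF and hOMF exosomes, filled where the edgeR adjusted p was under 0.05. Filled points of the ERK-responsive genes are all on the left, and RHBDF1, CBLC, LRIG2 and LRIG3 are filled on the right in both comparisons.

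For the 3 genes of the 10 whose CPM ranged most widely, the genes with the most similar course over the 9 libraries were sought among 9305 genes with a mean of at least 10 CPM. Likeness was the root mean square difference of log2 CPM after subtracting each gene's mean. HBEGF spanned 1.02 log2 units between its lowest and highest library. Its closest neighbours were CXCL8 (interleukin 8) at 0.103 and C15orf39 at 0.104. EGFR spanned 0.73 log2 units, and ATP2B4 (a calcium pump of the plasma membrane) at 0.047, ACLY (ATP citrate lyase) at 0.055 and C20orf194 at 0.060 were nearest to it. BTC spanned 0.99 log2 units, and UPK3BL2 (0.131), NPIPB15 (0.163) and TMEM41B (0.167) were its nearest. These distances describe 9 libraries from 3 groups and carry no test.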

How the data were processed

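Poly(A) RNA of 9 Cal-27 libraries was sequenced as pairs of 150 nucleotides with a dUTP-marked second strand, per the labels' protocols. In the 1 table that the authors deposited are expected counts, FPKM and TPM per gene and library, per the file headers. Per the submitters' processing notes Bowtie2 2.2.5 and RSEM 1.2.8 were used. Those notes name a mouse build although the gene identifiers are human, which leaves the authors' build uncertain. Annotation and strand setting: not given in the sources used here. The deposited TPM values, scaled to the same sum per library, served to compare genes, and the deposited FPKM values, scaled by length and depth, served as an alternative input.

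The deposited expected counts (90.5% to 92.0% whole within 0.001) were rounded. Genes were kept by filterByExpr (minimum count 10, minimum total 15) and scaled by TMM. The edgeR quasi-likelihood test (two-sided) was fitted to all 9 libraries with group as the term and 6 residual degrees of freedom, with Benjamini-Hochberg adjustment over all genes tested at 0.05. The SE is the log2 fold change over the root of F, and intervals cover 95%. No replicates agreed within sampling noise (chi-square per degree of freedom 3.08 to 11.1). The tools were DESeq2 1.42.0, edgeR 4.0.16 and limma 3.58.1 in R 4.3.3, with matplotlib 3.10.9 in Python 3.11.15.

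The 10 genes, the lists and the tests were chosen with earlier results of these data known. All 10 are named. Of each list, up to 3 genes with the smallest p with CAF exosomes are named, and others are said to be named after their values were seen. Some genes that the rules would name are not reported here. Gene coordinates came from GENCODE 29 on GRCh38, matched by NCBI gene identifier and symbol for 10 of 10 genes. Alternatives were DESeq2, other scaling factors, no filter, limma on counts (voom) or on log2(FPKM + 1) or log2(FPKM + 0.1), only the groups compared, a replicate block, and each library left out in turn.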

Additional observations from a re-analysis of the deposited data

How the results depend on the processing

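HBEGF and ERRFI1 kept their calls against control in all 19 alternatives, with log2 fold changes of -0.64 to -0.39 and -0.58 to -0.44 for CAF exosomes, and -0.83 to -0.58 and -0.70 to -0.60 for hOMF exosomes. The calls lost for EGFR, ERBB2 and LRIG1 are given above, and both EGFR calls were also lost by limma on FPKM without a filter. LRIG1 was called with CAF exosomes by the 3 fits of limma on FPKM. Of the 10 genes, 2 to 5 passed with hOMF exosomes when 1 library was left out: 2 without hOMF exosome replicate 1, and 3 without CAF exosome replicate 3, control replicate 2 or control replicate 3. With CAF exosomes 3 to 4 passed.

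Over all genes, 2264 passed with CAF exosomes (1343 to 2389 with 1 library left out, 1438 by limma on FPKM without a filter) and 2896 with hOMF exosomes (1695 to 3096). Between the kinds of exosomes 2 passed, with 0 to 8 when 1 library was left out, 36 by DESeq2, and 0 with library totals, voom, limma on FPKM (all 3 fits) or only the groups compared. The split of higher and lower genes was 1186 and 1078 with CAF exosomes and 1475 and 1421 with hOMF exosomes. It was 1425 and 832, and 2006 and 989, with library totals, 1421 and 857, and 1787 and 1107, with upper-quartile factors, and 1212 and 681, and 1812 and 824, with limma on log2(FPKM + 1). The split of the 10 genes stayed at 2 higher and 2 lower (CAF exosomes) and 3 and 2 (hOMF exosomes) with library totals or upper-quartile factors. The cause of these shifts was not tested.

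Values that changed sign all belonged to differences that did not pass. EREG with CAF exosomes was 0.0074 with library totals, 0.0081 with upper-quartile factors, 0.015 with limma on log2(FPKM + 1), with or without the filter, 0.019 with log2(FPKM + 0.1), and -0.12 to 0.045 with 1 library left out. TGFA with CAF exosomes was -0.077 to 0.10 with 1 library left out. Between the kinds of exosomes LRIG1 was 0.0010 in the limma fits on FPKM and -0.12 to 0.046 with 1 library left out, EGFR -0.061 to 0.18, ERBB3 -0.087 to 0.022 and BTC -0.041 to 0.42.

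Replicate numbers recur in the groups. Deviations of same-numbered libraries were at most weakly correlated (-0.154 to 0.140, over 0.1 in 1 of 9 pairs). For 5 of 9 libraries the closest library of another group had the same number. How many would match without pairing was not worked out. With the number as a replicate block, 2101 genes passed with CAF exosomes, 2718 with hOMF exosomes and 2 between them, and 4, 5 and 0 of the 10 genes passed, so no call of theirs changed. BTC, at 15 to 31 counts, had the widest intervals of the 10 genes.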

Other observations

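The transcript length implied by the deposited counts and FPKM of NRG1 was 2526 ± 156 bases with CAF exosomes, 2334 ± 55.6 with hOMF exosomes and 2614 ± 92.9 in controls (SD, n = 3 each), so its fold change in counts and in FPKM are not the same quantity.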
